A study of Homo sapiens with 32 samples.

Results

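GSK690* is an isomer of the KDM1A inhibitor GSK690 that the study's design text calls inactive, and the measurements described here set it against the vehicle DMSO. The 16 libraries were taken by their titles, 8 with GSK690* and 8 with DMSO, out of 32 in the series, and the 8 libraries with RN-1 and the 8 with GSK690 were used to mark the direction of the active inhibitors. The RNA came from Kasumi-1 and SKNO-1, a pair of human lines established from acute myeloid leukaemias that carry the RUNX1-RUNX1T1 fusion. Each line had 2 biological replicates for each agent and time, so the GSK690* groups were Kasumi-1 and SKNO-1 given 1 µM for 24 or 72 h, and the DMSO groups were the same lines and times with 0.1% DMSO. RN-1, an irreversible inhibitor, and GSK690, a reversible one, were also given at 1 µM for 24 or 72 h. The medium of SKNO-1 contained GM-CSF and that of Kasumi-1 did not, so the line and the cytokine cannot be told apart. The treatment protocol gives 4 days for SKNO-1 where the titles give 72 h, and it does not name GSK690*. The 24 h DMSO titles also carry a dose of 1 µM, the dose of the agents. A pair of cell lines stands for no wider range of leukaemias, and all cells were grown in culture.

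KDM1A (LSD1) removes methyl groups from lysine 4 of histone H3 and works in a complex with the scaffold protein RCOR1. In blood cells the repressors GFI1 and GFI1B bring this complex to regulatory regions of genes of the myeloid lineage. Inhibitors of KDM1A are known to raise such genes in acute myeloid leukaemia cells, among them surface proteins and lysosomal enzymes of monocytes. An isomer with little action on the enzyme is a common control for effects of a compound that do not pass through its target.

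The files used here hold no read counts, so sequencing depth is unknown, and limits on low genes rest on the replicates alone. FPKM, fragments per kilobase of transcript scaled to the mapped fragments of a library, summed to 336500 to 395900 in the GSK690* libraries and 346900 to 384400 in the DMSO libraries. Between 10560 and 10800 genes reached 1 FPKM with GSK690*, against 10550 to 10820 with DMSO, and replicates of a group had a Pearson r across genes of 0.988 to 0.996. The authors' own sample table gives the opposite cell line for every 72 h library, and the titles were followed. By the titles, the mean r between a 72 h library and 24 h ones was 0.982 to 0.990 within a line, against 0.862 to 0.879 between lines. RUNX1T1, the fusion partner, stood at 39.4 to 49.1 FPKM with GSK690* and 37.3 to 53.5 FPKM with DMSO in Kasumi-1, and at 21.2 to 29.4 and 23.7 to 32.4 FPKM in SKNO-1. The stem cell antigen CD34 was at 63.9 FPKM or more in each of these 8 Kasumi-1 libraries and at 0.680 FPKM or less in each of the 8 SKNO-1 libraries. KDM1A itself has values in 4 GSK690* and 3 DMSO libraries, at 69.7 to 85.1 FPKM and 68.7 to 82.2 FPKM, and no value in the DMSO libraries of Kasumi-1. In SKNO-1 at 72 h, DMSO replicate 1 has a source name formed unlike those of the other DMSO and GSK690* libraries of that set.

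No gene passed the test between GSK690* and DMSO when all 8 libraries of each were compared with cell line and time as blocks. The test was limma on log2(FPKM + 1) with Benjamini-Hochberg adjustment over 11890 genes, and a call needs an adjusted p under 0.05. The smallest adjusted p was 0.0521. At an unadjusted p under 0.05 there were 307 genes higher and 198 lower with GSK690*, 4.25% of the genes tested, against a nominal share of 5%. At an unadjusted p under 0.001 there were 24 higher and 3 lower. The estimate was as precise as in the other comparisons: the 95% interval of a gene's log2 difference had a median half-width of 0.131, against 0.136 for GSK690 minus DMSO. No gene differed 2-fold or more on this scale, and 14 differed by 0.5 or more. The count of 0 was near its limit: without the second DMSO replicate of SKNO-1 at 72 h, 3 genes passed (GLIPR1, CTSS and TMEM243), and without the second GSK690* replicate of SKNO-1 at 24 h, 3 passed (GLIPR1, CD53 and PITPNC1), all higher with GSK690*.

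The active inhibitors, fitted in the same way, changed many genes. With GSK690 2160 genes rose and 2900 fell against DMSO, 42.6% of those tested, and 108 of them rose at least 2-fold. With RN-1 1747 genes rose and 1958 fell against the same DMSO libraries, 31.2% of those tested. Under scaling by the median of ratios, calls with GSK690 split into 2565 higher and 2298 lower, and those with RN-1 into 2055 and 1544, so the larger side changes with the scaling. In the isomer pair, at matched dose and times, GSK690 was higher than GSK690* for 1695 genes and lower for 2024, 31.3% of those tested. Scaling by the median of ratios turned this split too, to 2000 higher and 1649 lower. The SD of the log2 difference over all genes was 0.0737 for GSK690* minus DMSO, 0.279 for GSK690 minus DMSO, 0.254 for RN-1 minus DMSO and 0.235 for GSK690 minus GSK690*.

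The main fit had no block for the replicate number. Within a set (1 cell line at 1 time), deviations of same-numbered GSK690* and DMSO libraries from their group means correlated at 0.144 (SKNO-1, 72 h) to 0.481 (Kasumi-1, 72 h). Pairing by number was taken up from these same data, and no label names it. When each number was given its own block, 8 genes passed between GSK690* and DMSO, 0.0673% of those tested. Higher with GSK690* were CD53, LYZ, P2RX7, GLIPR1, LPAR6, GPR65 and PIK3IP1, and lower was SUCNR1. CD53 is a tetraspanin of leukocytes, LYZ is lysozyme, P2RX7 is a cation channel opened by extracellular ATP, and LPAR6 is a receptor for lysophosphatidic acid. GPR65 is a proton-sensing receptor, PIK3IP1 is an inhibitor of phosphoinositide 3-kinase, and SUCNR1 is the succinate receptor. In this paired fit the adjusted p was 0.00234 for CD53, 0.00789 for LYZ and for P2RX7, 0.0235 for GLIPR1, LPAR6 and GPR65, 0.0391 for PIK3IP1 and 0.0495 for SUCNR1. Each of the 7 higher genes was above its same-numbered DMSO library in 8 of 8 pairs, and SUCNR1 was below it in 8 of 8. The fit chose these genes from the same pair differences, so this count is no separate support. CTSS, TMEM243 and GFI1 did not pass the paired fit and were also higher in 8 of 8 pairs. All 7 higher genes of the fit were higher with GSK690 than with GSK690* in the unpaired test as well, where 14.3% of all genes were. SUCNR1 was lower, as were 17% of all genes. CD53 passed in each of the 8 fits that left out 1 pair, and LYZ and P2RX7 in 6. Without the first pair of SKNO-1 at 72 h, which holds the DMSO library of the other source name, 22 genes were higher and 4 lower, with all 8 genes named here among them. Without any other pair, 1 to 5 genes passed, all from the 7 higher ones.

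The 6 genes of smallest p in the unpaired test are named here although none passed it: GLIPR1, CTSS, CD53, LYZ, GPR65 and TMEM243. All 6 were higher with GSK690* in each of the 4 sets. The unpaired adjusted p was 0.0521 for GLIPR1, CTSS, CD53 and LYZ, 0.0785 for GPR65 and 0.105 for TMEM243. The 10 genes of smallest p were all higher with GSK690*, as were 19 of the first 20 and 27 of the first 30. Over all genes tested, 44.6% were higher. The ranked genes come from 1 test and share its libraries, so these counts are a description.

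LYZ, lysozyme, the bactericidal enzyme of monocytes and granulocytes (chromosome 12, 69742120 to 69748014, hg19), showed the largest of these differences. In Kasumi-1 at 24 h it stood at 27.3 and 15.04 FPKM with GSK690*, against 11.5 and 7.95 FPKM with DMSO. In Kasumi-1 at 72 h it stood at 17.7 and 12.7 FPKM with GSK690*, against 9.48 and 7.23 FPKM with DMSO. In SKNO-1 it was more abundant, at 55.0 and 49.3 FPKM with GSK690* against 35.0 and 38.6 FPKM with DMSO at 24 h, and at 53.2 and 56.9 FPKM against 40.4 and 38.9 FPKM at 72 h. Both GSK690* libraries lay above both DMSO libraries in every set. The mean log2 difference was 0.69 (95% interval 0.44 to 0.93, n = 8 against 8). GSK690 gave 151 and 107 FPKM in Kasumi-1 at 24 h and 113 and 152 FPKM in SKNO-1 at 72 h, above every GSK690* library. The log2 difference was 2.50 for GSK690 minus DMSO, 2.26 for RN-1 minus DMSO and 1.81 for GSK690 minus GSK690* (adjusted p = 5.92e-06).

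GLIPR1, a protein of the CAP family (chromosome 12, 75874459 to 75897633, hg19), was clearest in Kasumi-1. It was at 7.97 and 6.40 FPKM with GSK690* against 3.35 and 4.15 FPKM with DMSO at 24 h, and at 9.06 and 8.19 FPKM against 5.06 and 4.08 FPKM at 72 h. In SKNO-1 at 24 h the groups overlapped, with 3.56 and 1.47 FPKM for GSK690* and 1.58 and 1.39 FPKM for DMSO. In SKNO-1 at 72 h they did not, with 2.91 and 3.36 FPKM for GSK690* and 1.45 and 2.01 FPKM for DMSO. The log2 difference was 0.66 (95% interval 0.43 to 0.88) for GSK690* minus DMSO and 2.13 for GSK690 minus GSK690* (adjusted p = 6.57e-09). GSK690 itself gave 44.9 and 50.6 FPKM in Kasumi-1 at 72 h. Without the second GSK690* replicate of SKNO-1 at 24 h, the low library of that pair, the adjusted p for GSK690* was 0.000289 with a log2 difference of 0.76. Over all 16 such fits the adjusted p of GLIPR1 ran from 0.000289 to 0.168.

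CD53 (chromosome 1, 111415774 to 111442550, hg19) was abundant in all libraries. In Kasumi-1 it was at 82.9 and 67.8 FPKM with GSK690* against 58.5 and 52.6 FPKM with DMSO at 24 h, and at 83.6 and 86.0 FPKM against 67.9 and 66.3 FPKM at 72 h. In SKNO-1 it was at 57.6 and 38.8 FPKM with GSK690* against 36.5 and 28.1 FPKM with DMSO at 24 h, and at 51.6 and 51.8 FPKM against 33.3 and 39.0 FPKM at 72 h. The groups were separate in every set, and the log2 difference was 0.45 (95% interval 0.29 to 0.61). For this gene the log2 difference of GSK690 minus GSK690* was 0.80 (adjusted p = 9.88e-07), and that of GSK690 minus DMSO was 1.25.

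CTSS encodes cathepsin S, a lysosomal protease that trims the invariant chain of class II molecules (chromosome 1, 150702671 to 150738433, hg19). It was at 23.5 and 24.4 FPKM with GSK690* against 16.4 and 18.9 FPKM with DMSO in Kasumi-1 at 24 h, and at 30.2 and 30.9 FPKM against 24.3 and 20.6 FPKM at 72 h. In SKNO-1 the values were 34.4 and 31.3 FPKM with GSK690* against 26.1 and 27.0 FPKM with DMSO at 24 h, and 38.2 and 39.7 FPKM against 34.9 and 36.1 FPKM at 72 h. The groups were separate in every set, with a log2 difference of 0.32 (95% interval 0.21 to 0.43), and the paired adjusted p was 0.0513. The log2 difference of GSK690 minus GSK690* was 0.84 (adjusted p = 2.25e-05).

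GPR65 (chromosome 14, 88471467 to 88478419, hg19) was low in Kasumi-1, at 1.59 and 1.11 FPKM with GSK690* against 0.833 and 0.515 FPKM with DMSO at 24 h. In SKNO-1 at 24 h it was at 3.78 and 3.47 FPKM with GSK690* against 2.29 and 2.56 FPKM with DMSO. TMEM243, a transmembrane protein (chromosome 7, 86825477 to 86849903, hg19), was at 6.09 and 5.64 FPKM with GSK690* against 3.11 and 3.87 FPKM with DMSO in SKNO-1 at 24 h. Both genes were separate between the agents in every set, with log2 differences of 0.37 (95% interval 0.23 to 0.51) for GPR65 and 0.42 (95% interval 0.25 to 0.58) for TMEM243. GSK690 minus GSK690* was 1.395 for GPR65 and 1.36 for TMEM243, both past the test.

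**Figure D1:**
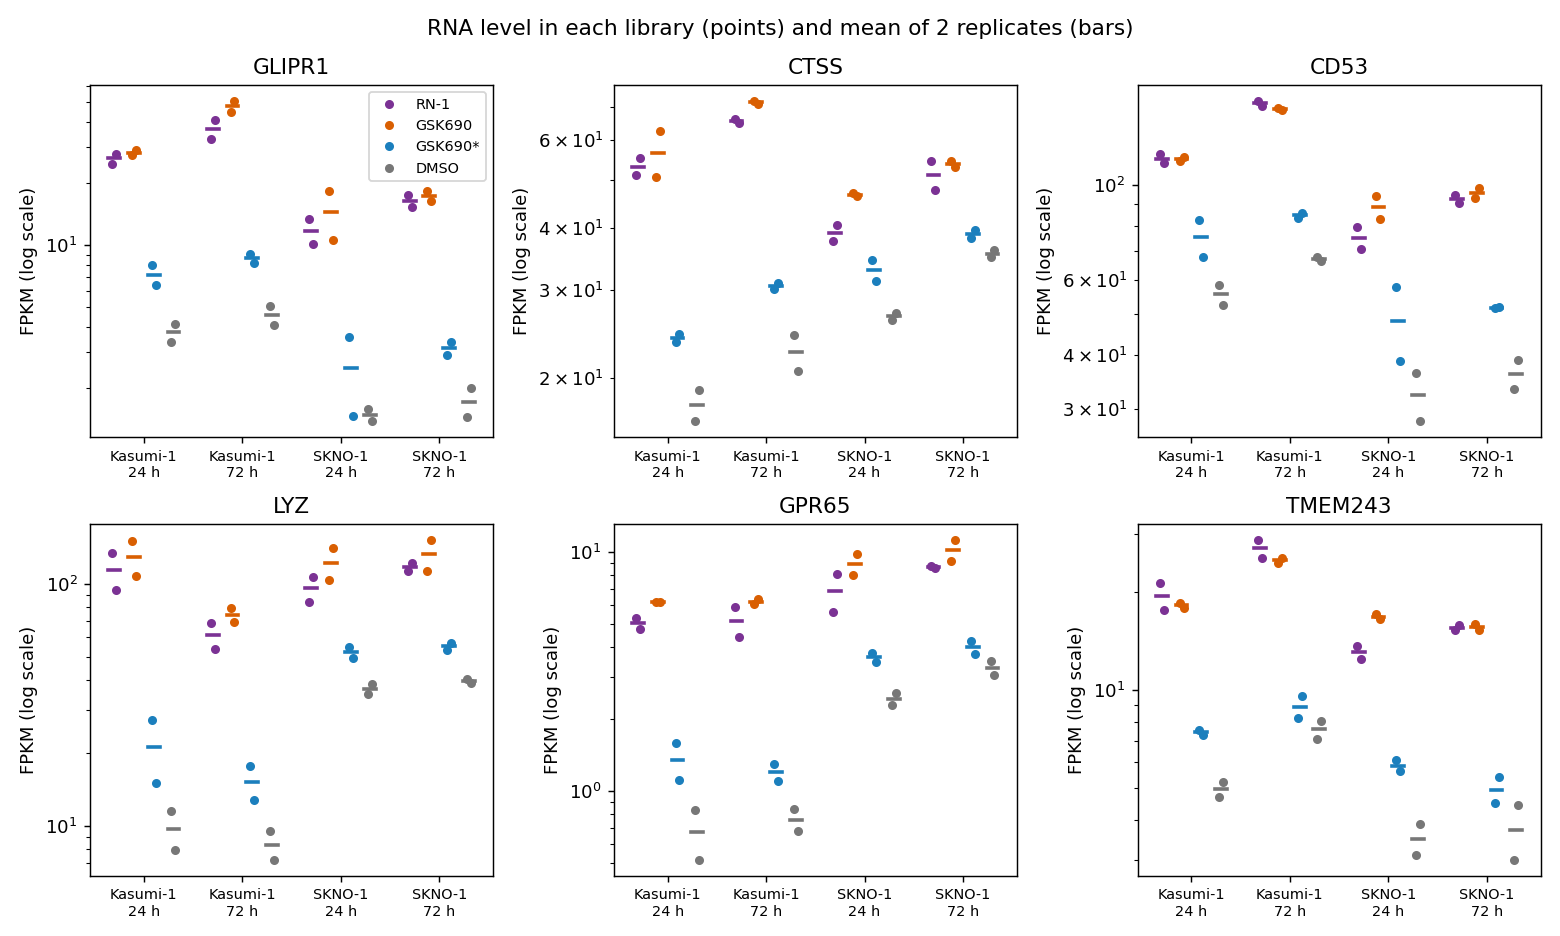
FPKM on a log scale of the 6 genes of smallest p between GSK690* and DMSO, in each library (points) with the mean of the 2 replicates (bars), for RN-1, GSK690, GSK690* and DMSO in each cell line and time. In every set the GSK690* mean lies above the DMSO mean and below the means of both inhibitors, and only GLIPR1 in SKNO-1 at 24 h has overlapping GSK690* and DMSO libraries.

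Of the other genes of the paired fit, P2RX7 was at 5.73 and 6.07 FPKM with GSK690* against 3.71 and 4.32 FPKM with DMSO in Kasumi-1 at 24 h, and at 1.52 and 3.90 FPKM against 0.991 and 2.83 FPKM in SKNO-1 at 72 h, where replicate 2 was the higher with both agents. LPAR6 had the same kind of split, with 8.20 and 14.5 FPKM for GSK690* and 6.19 and 9.99 FPKM for DMSO in SKNO-1 at 72 h. PIK3IP1 was at 1.35 and 0.842 FPKM with GSK690* against 0.830 and 0.575 FPKM with DMSO in SKNO-1 at 24 h, where replicate 1 was the higher with both. SUCNR1 was at 1.27 and 3.89 FPKM with GSK690* against 2.74 and 5.18 FPKM with DMSO in SKNO-1 at 72 h. In that set the agents overlap as groups and are ordered within each number. The unpaired adjusted p was 0.846 for P2RX7, 0.355 for LPAR6, 0.488 for PIK3IP1 and 1.00 for SUCNR1.

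Promoters from RefSeq on GRCh38.p14, 250 bases before to 50 after a start, are shown for 4 of the genes that passed the paired test and for KCTD12, a gene that did not pass (its values follow). Windows of PIK3IP1 and SUCNR1 were searched as well. Capitals mark AAATCA, the core letters bound by GFI1, and GAGGAA, the core letters bound by the myeloid factor PU.1, on either strand. The RUNX core letters TGTGGT were searched too and are in none of the 9 windows of these 7 genes.
CD53, first start, chr1:110870960-110871259, plus strand: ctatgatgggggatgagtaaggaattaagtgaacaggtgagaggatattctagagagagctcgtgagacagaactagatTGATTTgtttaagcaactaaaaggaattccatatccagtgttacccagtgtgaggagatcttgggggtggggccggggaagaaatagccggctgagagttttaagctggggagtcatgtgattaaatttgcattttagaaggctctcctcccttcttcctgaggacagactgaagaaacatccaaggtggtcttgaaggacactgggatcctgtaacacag
CD53, second start, chr1:110872898-110873197, plus strand: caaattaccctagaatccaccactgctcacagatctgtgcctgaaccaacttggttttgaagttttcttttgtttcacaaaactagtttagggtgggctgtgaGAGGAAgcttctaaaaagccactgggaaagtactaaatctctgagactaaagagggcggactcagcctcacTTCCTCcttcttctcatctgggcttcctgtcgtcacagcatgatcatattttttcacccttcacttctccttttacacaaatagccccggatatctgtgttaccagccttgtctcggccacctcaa
GPR65, chr14:88004885-88005184, plus strand: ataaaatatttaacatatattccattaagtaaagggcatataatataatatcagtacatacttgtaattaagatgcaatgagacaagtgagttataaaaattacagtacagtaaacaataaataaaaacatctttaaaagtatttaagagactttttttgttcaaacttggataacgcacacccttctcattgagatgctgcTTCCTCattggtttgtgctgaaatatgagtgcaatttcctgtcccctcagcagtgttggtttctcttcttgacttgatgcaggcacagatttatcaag
P2RX7, chr12:121132626-121132925, plus strand: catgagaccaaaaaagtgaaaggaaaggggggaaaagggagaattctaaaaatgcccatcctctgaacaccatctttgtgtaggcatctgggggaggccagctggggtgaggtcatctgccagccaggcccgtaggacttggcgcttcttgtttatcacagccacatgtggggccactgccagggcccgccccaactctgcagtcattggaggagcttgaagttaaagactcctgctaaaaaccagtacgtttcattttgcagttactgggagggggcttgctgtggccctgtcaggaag
LPAR6, chr13:48413064-48413363, minus strand: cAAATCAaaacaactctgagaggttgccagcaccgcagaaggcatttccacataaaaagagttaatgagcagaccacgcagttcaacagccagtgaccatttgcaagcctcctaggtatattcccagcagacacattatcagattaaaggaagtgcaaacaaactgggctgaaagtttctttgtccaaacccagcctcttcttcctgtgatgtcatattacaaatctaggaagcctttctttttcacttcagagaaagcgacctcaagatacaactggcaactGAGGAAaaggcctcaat
KCTD12, chr13:76886356-76886655, minus strand: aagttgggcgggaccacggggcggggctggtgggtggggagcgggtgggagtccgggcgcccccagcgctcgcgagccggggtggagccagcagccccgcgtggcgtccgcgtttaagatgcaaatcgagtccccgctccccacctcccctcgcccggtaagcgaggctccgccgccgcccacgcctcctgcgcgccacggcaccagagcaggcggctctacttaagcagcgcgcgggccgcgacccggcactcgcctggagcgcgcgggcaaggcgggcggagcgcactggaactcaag
Of 35116 RefSeq promoters of this length, 13.2% hold AAATCA, 27.9% hold GAGGAA and 13.1% hold TGTGGT. The letters AAATCA are in the first CD53 window and the LPAR6 window, and GAGGAA in the second CD53 window, the GPR65 window, the LPAR6 window and the SUCNR1 window. The windows of P2RX7, PIK3IP1 and KCTD12 hold none of the 3. A match of these letters is a description of the sequence, and binding was not measured in these libraries.

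Among the genes followed whatever their values, several that the inhibitors raised strongly had an interval for GSK690* minus DMSO that includes 0. KCTD12, an auxiliary subunit of GABA-B receptors, was at 1.06 to 1.87 FPKM with GSK690* (median 1.496) and 1.17 to 1.95 FPKM with DMSO (median 1.53). Its log2 difference for GSK690* minus DMSO was −0.08 (95% interval −0.22 to 0.06), while GSK690 gave 18.2 and 18.0 FPKM in Kasumi-1 at 24 h and GSK690 minus GSK690* was 2.63. CD86, a costimulatory molecule of antigen-presenting cells, was at 0.0705 to 1.32 FPKM with GSK690* and 0.0957 to 0.963 FPKM with DMSO. Its log2 difference was 0.06 (95% interval −0.06 to 0.18) for GSK690* minus DMSO and 2.10 for GSK690 minus GSK690*. In 4 of 8 same-numbered pairs CD86 was higher with GSK690*, and in 4 it was lower. The intervals of PI16, a peptidase inhibitor (−0.08 to 0.12), CLEC4A, a C-type lectin (−0.11 to 0.14), and FCGR2B, an inhibitory Fc receptor (−0.05 to 0.22), also include 0 for GSK690* minus DMSO. So does that of MS4A4A (−0.03 to 0.30). With both agents PI16 was at 0.115 FPKM or less, CLEC4A at 0.368 or less and FCGR2B at 1.21 or less. MS4A4A was at 0.760 FPKM or less and CD86 at 1.32 or less. At such levels log2(FPKM + 1) keeps differences small, so these intervals say little about a ratio. In SKNO-1 at 24 h the log2 difference was 0.35 for FCGR2B, 0.24 for CD86 and 0.44 for MS4A4A. In the other sets it ran from −0.08 to 0.09 for FCGR2B and CD86, and from −0.12 to 0.19 for MS4A4A. Each of these genes was higher with GSK690 than with GSK690*, by 1.71 to 2.63 on the log2 scale.

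Others of the followed genes were higher with GSK690* without passing either test. GFI1 was at 132 and 135 FPKM with GSK690* against 118 and 116 FPKM with DMSO in Kasumi-1 at 24 h, and at 138 and 154 FPKM against 123 and 128 FPKM at 72 h. In SKNO-1 it was at 106 and 95.1 FPKM with GSK690* against 94.1 and 90.4 FPKM with DMSO at 24 h, and at 117 and 115 FPKM against 103 and 112 FPKM at 72 h. The groups were separate in every set by a small margin, and the log2 difference was 0.16 (95% interval 0.08 to 0.24, adjusted p = 0.355, paired 0.162), against 0.64 for GSK690 minus DMSO. RGMB, a coreceptor for bone morphogenetic proteins, differed by 0.33 (95% interval 0.15 to 0.51), TSPAN7, a tetraspanin, by 0.38 (0.15 to 0.60), and ANXA2, annexin A2, by 0.33 (0.09 to 0.56). At 24 and 72 h RGMB differed by 0.57 and 0.47 in SKNO-1, against 0.09 and 0.19 in Kasumi-1. TSPAN7 differed by 0.50 and 0.56 against 0.33 and 0.12, and ANXA2 by 0.73 and 0.40 against 0.14 and 0.04. The difference between lines passed for none of them. ITGAM, the integrin CD11b, differed by 0.21 (0.06 to 0.36), LY96, the coreceptor of TLR4, by 0.28 (0.06 to 0.51), and GPR84, a fatty acid receptor, by 0.20 (0.07 to 0.33). ITGAM was at 0.826 FPKM or less in all 16 libraries and LY96 reached 1.28 FPKM at most, so these are differences near the bottom of the scale. CD34 differed by 0.22 (0.06 to 0.37), with GSK690* above DMSO in both libraries of 2 sets.

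Of 13 tested genes of the KDM1A complex and its recruiters, 7 were higher and 6 lower with GSK690*, with a median of 0.00633 (10 and 3 after quantile normalization), and only GFI1 had an unadjusted p under 0.05. RCOR1 had a log2 difference of 0.00 (95% interval −0.11 to 0.11), SPI1, which encodes PU.1, of −0.05 (−0.21 to 0.11) and CEBPA, a granulocytic transcription factor, of −0.01 (−0.28 to 0.26). None of the 3 passed between GSK690 and GSK690* either. GFI1B differed by 0.14 (−0.02 to 0.31), against 1.83 for GSK690 minus DMSO. GFI1B was at 0.617 FPKM or less with GSK690* and 0.110 FPKM or less with DMSO, near the bottom of the scale. It was higher with GSK690* in 7 of 8 same-numbered pairs and lower in 0. Genes lowered by GSK690 had differences below 0 as well: CD180, an LPS-modulating receptor of the TLR family, by −0.26 (−0.48 to −0.05), MFAP4, a microfibril-associated protein, by −0.26 (−0.42 to −0.09), and the receptor KIT by −0.08 (−0.20 to 0.05). MT2A, a metallothionein lowered by GSK690, differed by −0.13 (−0.40 to 0.13). No adjusted p of these lowered genes was under 0.769.

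**Figure D2:**
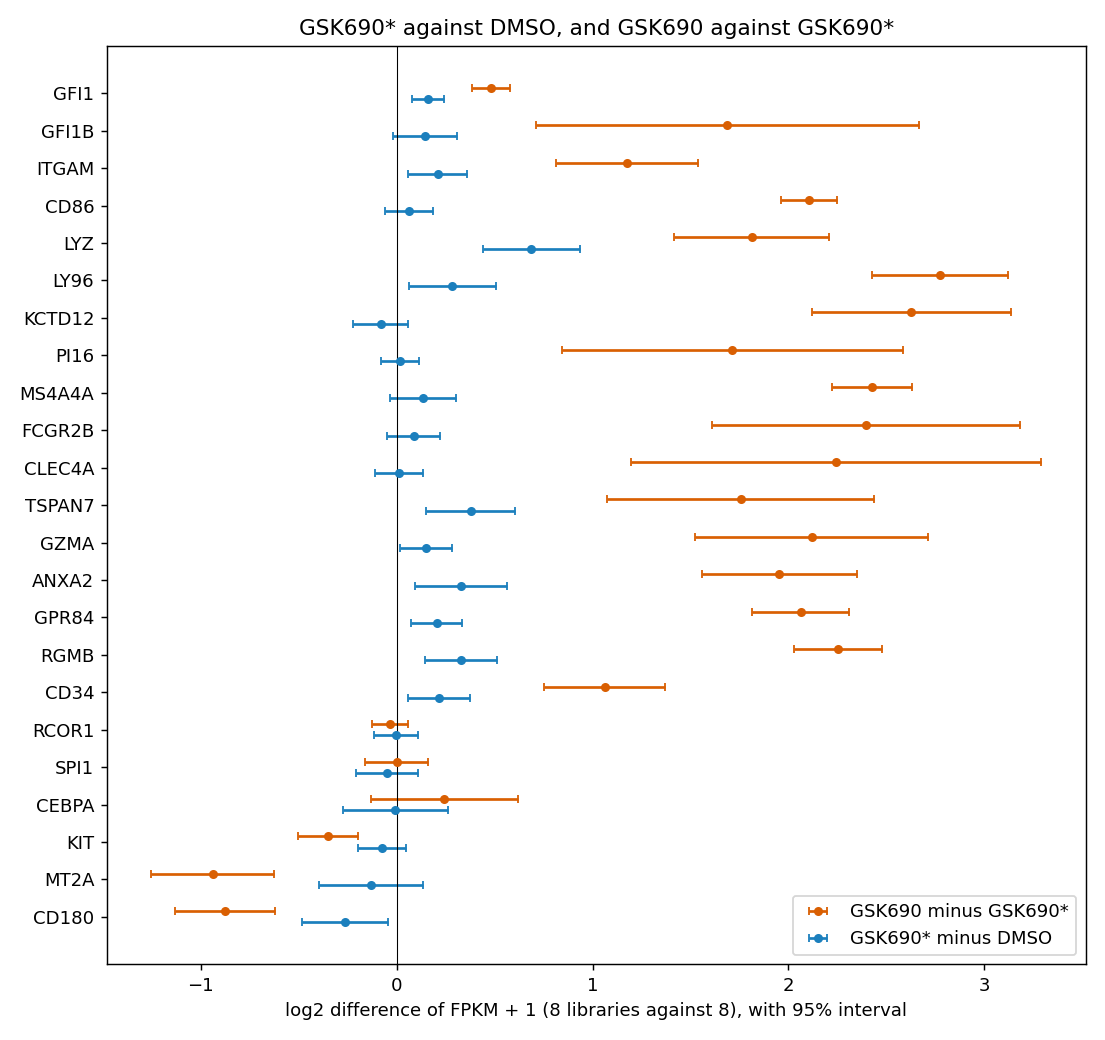
Log2 difference of FPKM + 1 with its 95% interval for the genes followed whatever their values, GSK690 minus GSK690* (orange) and GSK690* minus DMSO (blue), 8 libraries against 8. The blue intervals of LYZ, GFI1, RGMB and TSPAN7 lie above 0 while those of KCTD12, CD86, PI16 and CLEC4A include it, and the orange intervals of all these lie at or above 0.38.

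To ask how far GSK690* moved genes in the direction of the inhibitors, genes were chosen in 1 cell line from RN-1 and GSK690 together against DMSO (adjusted p under 0.05 and at least 1.5-fold) and read in the other line in GSK690* minus DMSO. No library serves both the choice and the reading. Most of these genes differed in the inhibitors' direction, by a small amount. The filter counted all 32 libraries, so the raised lists also hold genes that lie low with both GSK690* and DMSO. PI16, CLEC4A, GFI1B and GZMA, at 0.672 FPKM or less, are among them. For such genes log2(FPKM + 1) keeps a GSK690* difference small, and their number was not taken. Of 490 genes raised in Kasumi-1, 390 (79.6%) were higher with GSK690* than with DMSO in SKNO-1, against 46.3% of all genes tested, and their median log2 difference was 0.0789, against −0.00603 for all genes. This median was 0.0541 without the first DMSO replicate of SKNO-1 at 72 h and 0.0507 without the first GSK690* replicate of SKNO-1 at 24 h, and it ran up to 0.112 as each library was left out. In the same SKNO-1 sets the median of these 490 genes was 0.494 for GSK690 minus DMSO and 0.428 for RN-1 minus DMSO. Of 358 genes raised in SKNO-1, 273 (76.3%) were higher with GSK690* in Kasumi-1, with a median of 0.0792, against 46.0% and −0.0067 over all genes. The medians of these genes in Kasumi-1 were 0.589 for GSK690 and 0.565 for RN-1.

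The lowered lists were shorter and less steady. Of 73 genes lowered by the inhibitors in Kasumi-1, 55 (75.3%) were lower with GSK690* in SKNO-1, with a median of −0.0568, where GSK690 gave −0.357. That median ran from −0.0921 (without the first DMSO replicate of SKNO-1 at 72 h) to −0.0261 (without the second GSK690* replicate of SKNO-1 at 24 h). Of 36 genes lowered in SKNO-1, 27 (75%) were lower with GSK690* in Kasumi-1, with a median of −0.0845, where GSK690 gave −0.413. For GSK690* that median was −0.0524 without the first DMSO replicate of Kasumi-1 at 72 h. None of the genes in either direction passed the test in the line where they were read. At an unadjusted p under 0.05, 11.2% of the genes raised in Kasumi-1 were higher with GSK690* in SKNO-1, against 1.4% of all genes, and 21.2% of those raised in SKNO-1 were higher in Kasumi-1, against 2.41% of all genes. Of the genes lowered in SKNO-1, 6 of 36 (16.7%) were lower in Kasumi-1 at that p, against 1.67% of all genes, and of those lowered in Kasumi-1, 1 of 73 (1.37%) was lower in SKNO-1, against 0.757%.

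Crossing the times gave larger shares. Of 446 genes raised at 72 h, 386 (86.5%) were higher with GSK690* at 24 h, with a median of 0.137 where GSK690 gave 0.687 and RN-1 0.615. Of 301 genes raised at 24 h, 267 (88.7%) were higher with GSK690* at 72 h, with a median of 0.131 where GSK690 gave 0.935 and RN-1 0.849. Without the first DMSO replicate of SKNO-1 at 72 h this last GSK690* median was 0.0756, and it ran up to 0.174 as each library was left out. Over all genes, 50% were higher with GSK690* at 24 h and 48.3% at 72 h. Of 57 genes lowered at 72 h, 50 were lower with GSK690* at 24 h, and of 22 lowered at 24 h, 19 were lower with GSK690* at 72 h. At an unadjusted p under 0.05, 24% of the genes raised at 72 h were higher at 24 h (4.25% of all genes) and 12.3% of those raised at 24 h were higher at 72 h (0.816% of all genes). Among the lowered genes the shares were 21.1% at 24 h (6.48% of all genes) and 1 of 22 at 72 h (0.833% of all genes).

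The mean level of each list was also taken per library, as log2(FPKM + 1) averaged over its genes and set against the DMSO mean of the same line and time. For the 357 genes raised in SKNO-1 with a value in every library, GSK690* stood at 0.101 and 0.114 in Kasumi-1 at 24 h, against 0.0019 and −0.0019 for DMSO, and at 0.0613 and 0.129 at 72 h, against 0.000981 and −0.000981 for DMSO. In both sets GSK690* was above DMSO without overlap, and GSK690 stood at 0.622 and 0.637 at 24 h. For the 490 genes raised in Kasumi-1, GSK690* stood at 0.18 and 0.0431 in SKNO-1 at 24 h, against 0.0173 and −0.0173 for DMSO, a further set without overlap. In SKNO-1 at 72 h the groups overlapped, with 0.0321 and 0.147 for GSK690* and −0.0788 and 0.0788 for DMSO. There replicate 2 was the higher with each agent, and within each number GSK690* was above DMSO. GSK690 stood at 0.609 and 0.674 in that set. For the 73 genes lowered in Kasumi-1 this set had no common direction, with 0.0259 and −0.0376 for GSK690* and −0.073 and 0.073 for DMSO.

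**Figure D3:**
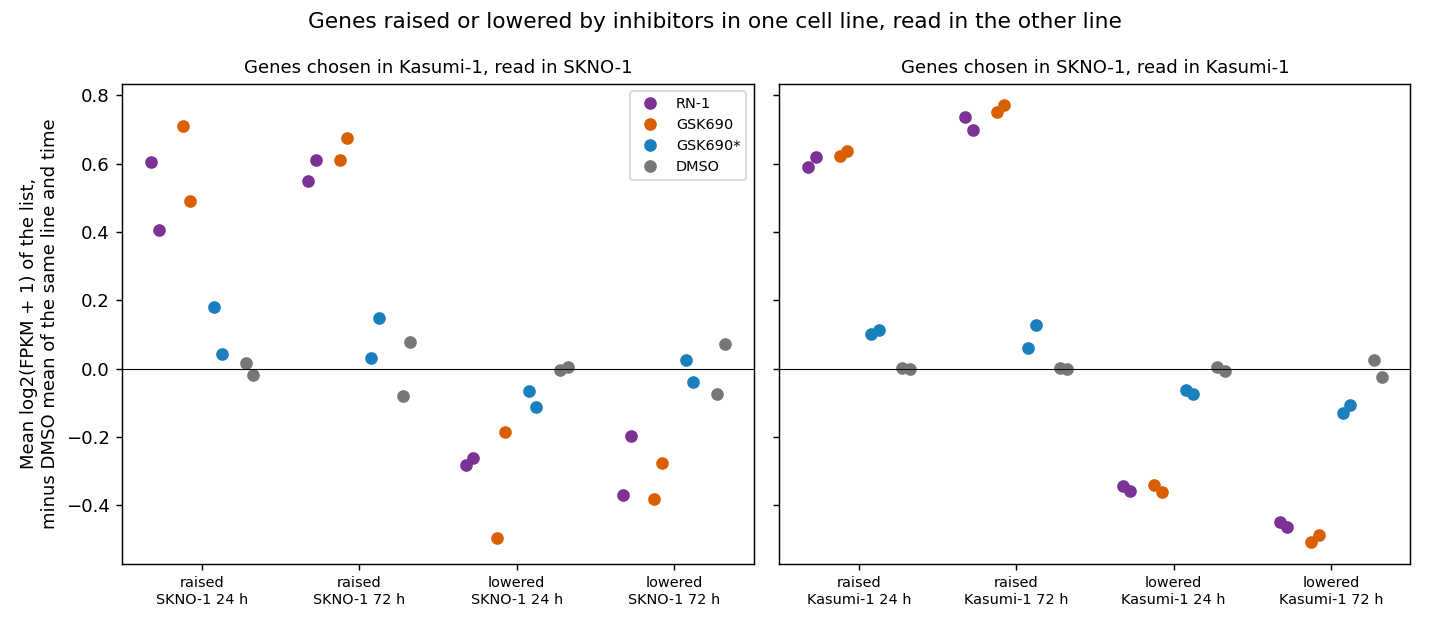
Mean log2(FPKM + 1) of the genes raised or lowered by inhibitors in one cell line, read in each library of the other line and given as the difference from the DMSO mean of the same line and time. GSK690* libraries lie just above the DMSO libraries for the raised genes, without overlap in 3 of the 4 sets, while every RN-1 and GSK690 library lies at 0.406 or higher.

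The difference with GSK690* grew with the size of the inhibitors' change. Genes that changed by −0.25 to 0.25 on the log2 scale with the inhibitors in Kasumi-1 had a median of −0.00814 for GSK690* in SKNO-1 (8420 genes). Those raised by 0.25 to 0.58 had 0.0312 (1284 genes), those raised by 0.58 to 1 had 0.0627 (348 genes) and those raised by 1 to 2 had 0.153 (131 genes). For the same groups of genes the medians with GSK690 in SKNO-1 were −0.0247, 0.211, 0.407 and 0.743. In the other direction of the crossing, the medians for GSK690* in Kasumi-1 were −0.00963, 0.0479, 0.0723 and 0.0769, and those for GSK690 were −0.0412, 0.301, 0.495 and 0.735, so for GSK690* the last 2 of these groups were nearly level. Across all genes, the correlation of the GSK690* difference in one line with the inhibitors' change in the other was 0.331 read in SKNO-1 (11890 genes) and 0.341 read in Kasumi-1 (11889 genes), and for GSK690 it was 0.648 and 0.637. Genes share libraries and are not independent, so these are descriptions.

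**Figure D4:**
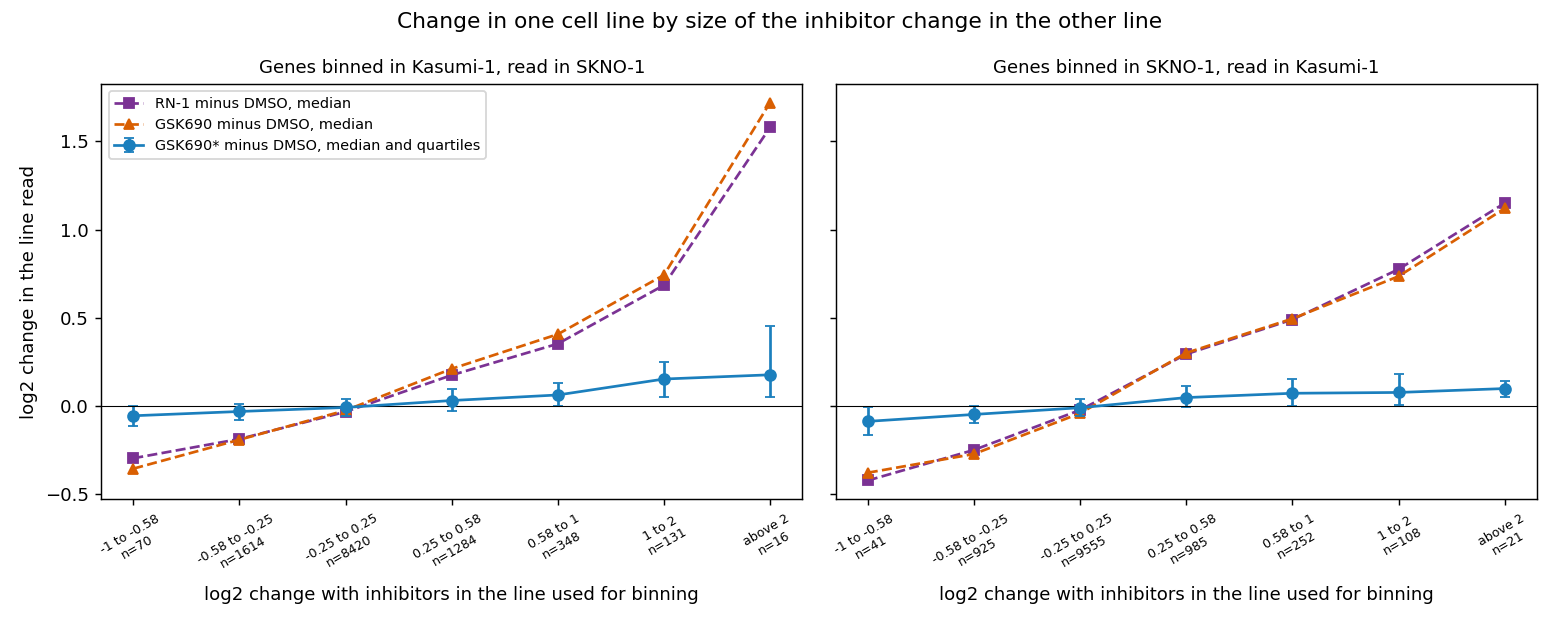
Median log2 change in the cell line read, for genes binned by their change with the inhibitors in the other line (bins of 6 and 2 genes below −1 are not drawn), for RN-1, GSK690 and GSK690* minus DMSO, with quartiles for GSK690*. The GSK690* medians go up from bin to bin and reach 0.177, and those of the inhibitors reach 1.72.

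The leading genes of the lists did not share 1 pattern. LYZ, raised by 3.19 in Kasumi-1, had a log2 difference of 0.48 ± 0.06 (SE, n = 4 against 4) for GSK690* in SKNO-1, GLIPR1 (2.77) one of 0.52 ± 0.18 and LY96 (3.26) one of 0.45 ± 0.18. PI16 (3.36) and KCTD12 (3.25), raised about as much in Kasumi-1, had 0.03 ± 0.04 and −0.08 ± 0.10, though GSK690 itself changed PI16 by only 0.16 in SKNO-1. Of the genes raised most in SKNO-1, TSPAN7 (3.31) had 0.22 ± 0.07 for GSK690* in Kasumi-1, while FCGR2B (3.83), CLEC4A (3.75) and GFI1B (3.33) had −0.05 ± 0.05, 0.04 ± 0.07 and 0.04 ± 0.04. GZMA, the protease granzyme A (3.21), had 0.07 ± 0.04 and ANXA2 (3.02) had 0.09 ± 0.10. SERPINB8, raised by 2.61 in Kasumi-1, had 0.10 ± 0.05 for GSK690* in SKNO-1. In Kasumi-1 GSK690 itself changed CLEC4A and GFI1B by only 0.45 and 0.23. PI16, CLEC4A, GFI1B and GZMA were at 0.672 FPKM or less in all GSK690* and DMSO libraries, near the bottom of the scale. Of the genes lowered in Kasumi-1, CD180 (−1.33), MT2A (−1.3) and MT1G (−1.25) had −0.31 ± 0.18, −0.07 ± 0.23 and 0.26 ± 0.43 in SKNO-1. Of those lowered in SKNO-1, KCNH2 (−1.26), MFAP4 (−1.22) and SUCNR1 (−0.997) had −0.02 ± 0.03, −0.22 ± 0.09 and −0.31 ± 0.08 in Kasumi-1. GSK690 itself changed KCNH2 by only −0.0078 in Kasumi-1. The adjusted p was 0.558 for LYZ and larger for the rest of the genes named in this paragraph.

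Both libraries of GSK690* lay above both of DMSO in all 4 sets for 24 of 11865 genes (0.202%) and below them for 9 (0.0759%). For GSK690 against the same DMSO libraries the counts were 907 (7.64%) and 946 (7.97%), for RN-1 718 (6.05%) and 596 (5.02%), and for GSK690 against GSK690* 645 (5.43%) and 585 (4.93%). The 24 include CD53, CTSS, EVI2B, GFI1, GPR65, LYZ, MARCKS, PITPNC1, RGMB, SOX4, TMEM243, TNFRSF10D and TSPAN7. EVI2B, a leukocyte membrane protein chosen after its values were seen, was at 35.4 and 30.2 FPKM with GSK690* against 25.4 and 20.3 FPKM with DMSO in Kasumi-1 at 24 h, with a log2 difference of 0.30 over the 4 sets. SPEN, a repressor that works with RBPJ, is among the 9 genes below.

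PIK3R2 and RGS5, both chosen after their values were seen, had the smallest p among the genes lower with GSK690*. PIK3R2, the p85-beta subunit of phosphoinositide 3-kinase, was at 4.62 to 10.1 FPKM with GSK690* (median 6.81) and 7.52 to 10.95 FPKM with DMSO (median 9.46), a log2 difference of −0.42 (95% interval −0.62 to −0.22, adjusted p = 0.355). Its set values were −0.85 in SKNO-1 at 24 h, −0.42 in Kasumi-1 at 24 h, −0.31 in SKNO-1 at 72 h and −0.10 in Kasumi-1 at 72 h. GSK690 minus GSK690* was −0.25 for it and did not pass (adjusted p = 0.188). Against the same DMSO libraries GSK690 lowered it by −0.67 (adjusted p = 0.00421) and RN-1 by −0.57 (adjusted p = 0.00774). Its choice rested in part on the values of these DMSO libraries, so the inhibitor comparisons are no separate support. RGS5, a regulator of G-protein signalling, was at 0.551 FPKM or less in all 16 libraries, with a median of 0.129 FPKM with GSK690* and 0.354 FPKM with DMSO. Its log2 difference was −0.24 (adjusted p = 0.355) for GSK690* minus DMSO, and 0.45 for GSK690 minus GSK690*, which passed (adjusted p = 0.00256). Both comparisons use the GSK690* libraries whose low values led to its choice, so the second is no separate support. Against DMSO it did not pass in the same test with GSK690 (0.20, adjusted p = 0.127) or RN-1 (−0.03, adjusted p = 0.851).

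In single sets, with 2 libraries of each agent, 1 gene passed. NEDD8-MDP1 had 1.88 and 1.55 FPKM with GSK690* in SKNO-1 at 24 h, against 0.173 FPKM in 1 DMSO library and practically 0 in the other, a log2 difference of 1.32 (adjusted p = 0.0193, 0.00841% of those tested). It is a readthrough gene that shares reads with NEDD8 and MDP1, its highest value with GSK690* in the other 3 sets was 0.255 FPKM, and the call was lost in each of the 4 fits without 1 library of that set. No gene passed in Kasumi-1 at 24 h, in Kasumi-1 at 72 h or in SKNO-1 at 72 h, where 346, 129 and 345 genes had an unadjusted p under 0.05 (2.91%, 1.09% and 2.9% of those tested), against 237 (1.99%) in SKNO-1 at 24 h. The difference between lines and the difference between times in the effect of GSK690* were tested as interactions, and limma called 0 genes for either, with 139 and 495 at an unadjusted p under 0.05 (1.17% and 4.16%). SERPINB8 had the smallest p in Kasumi-1 at 24 h (adjusted p = 0.148) and for the difference between lines, without passing. Its log2 differences at 24 and 72 h were 0.83 and 0.55 in Kasumi-1, against 0.08 and 0.11 in SKNO-1.

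Across genes, the GSK690* differences of the sets were alike at the same time and not at different times. The Pearson r was 0.386 between the lines at 24 h and 0.214 between them at 72 h, over at least 11888 genes. Within a line it was 0.0904 between the times in Kasumi-1 and −0.0567 in SKNO-1, and it was −0.209 between Kasumi-1 at 24 h and SKNO-1 at 72 h. For GSK690 minus DMSO the same pairs of sets gave 0.596 and 0.585 between the lines, and 0.852 and 0.798 between the times. The 24 h and 72 h libraries carry differently formed source names, and the part of that difference was not tested.

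Gene lists for the tissue and the pathway were read in the same fit, and no member of any of the 26 lists passed the unpaired test between GSK690* and DMSO (0% of all genes did). LYZ alone among the members passed the paired one. All 22 interferon-stimulated and all 8 class II genes were higher under both scalings too, and the medians kept their sign except where stated. Of 18 monocyte and macrophage markers with enough RNA to test, 13 were higher with GSK690*, with a median of 0.0819, against −0.00801 for all genes. Over all genes tested 44.6% were higher with GSK690*, the share to set beside this and the later counts of members. By set, 13 of the 18 were higher in each line at 24 h, with medians of 0.127 in Kasumi-1 and 0.158 in SKNO-1, and at 72 h 9 in Kasumi-1 and 10 in SKNO-1, with medians of 0.0025 and 0.0175. With GSK690 14 of the 18 rose and 1 fell, with a median of 1.07, where 18.2% of all genes rose and 24.4% fell. At an unadjusted p under 0.05, LYZ, GPR84, FCGR1A, LY96, CTSS, MS4A7 and ITGAM were higher and CD180 lower with GSK690*, against 2.58% and 1.67% of all genes. More cells of a type and more RNA per cell cannot be told apart in these bulk libraries, nor can fewer cells and less RNA. Of 8 neutrophil and granule genes 4 were higher and 4 lower with GSK690*, with a median of −0.012, but in SKNO-1 none of the 8 was higher at 24 h (median −0.182) and 7 were at 72 h (median 0.124). Of 15 stem and progenitor genes 10 were higher, and SOX4, ERG and CD34 had an unadjusted p under 0.05, with log2 differences of 0.14, 0.19 and 0.22. Of 9 mast cell, basophil and eosinophil genes 5 were higher (median 0.0903), of 4 erythroid and megakaryocyte genes 3, and of 19 lysosomal genes 11 (median 0.015).

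Genes of the interferon response and of antigen presentation were mostly higher with GSK690*, without a call. All 22 tested interferon-stimulated genes were higher, by 0.0564 to 0.341 on the log2 scale, with a median of 0.147. GSK690 raised 10 of them, with a median of 0.391. Of all genes tested, 44.6% were higher with GSK690*, and GSK690 raised 18.2%. By set, the median of the interferon-stimulated genes with GSK690* was 0.356 in Kasumi-1 at 24 h and 0.0942 at 72 h. In SKNO-1 it was 0.0608 at 24 h and 0.0588 at 72 h. TRIM22, an antiviral ubiquitin ligase, was at 7.37 and 8.38 FPKM with GSK690* against 3.31 and 6.72 FPKM with DMSO in Kasumi-1 at 24 h, and HERC5, the main ligase for ISG15, at 6.63 and 5.75 FPKM against 4.76 and 4.09 FPKM. Both groups of libraries were separate there, and in SKNO-1 at 72 h those of both genes overlapped. Over the 4 sets the log2 difference was 0.34 for TRIM22 and 0.21 for HERC5, with an adjusted p of 1.00 for TRIM22 and 0.859 for HERC5. Of 15 class I presentation genes 14 were higher with GSK690*, with a median of 0.0926, but in SKNO-1 at 24 h the median was −0.0391. All 8 class II genes were higher, with a median of 0.102, where GSK690 raised 6. Of 11 genes of the cytokine and NF-kB response 9 were higher, with a median of 0.0969. Of 7 replication-dependent histone genes 6 were higher, with a median of 0.101, where GSK690 raised 6.

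Genes of proliferation and of cholesterol synthesis, most of which GSK690 lowered, were mostly lower with GSK690* too, without a call. Of 25 proliferation genes 23 were lower with GSK690*, with a median of −0.0413, where GSK690 lowered 22 with a median of −0.287. Of all genes tested, 44.6% were higher with GSK690*, and GSK690 lowered 24.4%. The set medians of the proliferation genes with GSK690* ran from −0.103 in Kasumi-1 at 24 h to −0.00207 in SKNO-1 at 72 h. Of 18 cholesterol synthesis genes 17 were lower, with a median of −0.0537, where GSK690 lowered 15 with a median of −0.454, but in SKNO-1 at 24 h 12 of the 18 were higher with GSK690*. Of 17 MYC and ribosome biogenesis genes 12 were lower, with a median of −0.0177, but in SKNO-1 at 72 h 10 of the 17 were higher. Of 5 metallothioneins 4 were lower, with a median of −0.068, where GSK690 lowered 4, but in SKNO-1 at 72 h all 5 were higher with GSK690* (median 0.0929).

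Lists of stress and other responses had small medians over the 4 sets, some of which join sets of opposite sign. The median for GSK690* minus DMSO was 0.00584 for 12 heat shock genes, 0.00356 for 17 genes of the unfolded protein response and ATF4, −0.0094 for 13 genes of oxidative stress and drug metabolism, 0.000346 for 11 hypoxia and glycolysis genes and 0.0128 for 15 p53 targets and BCL2 family genes. It was −0.00846 for 12 immediate early genes. For 5 amine oxidases it was 0.0603. GSK690 lowered 8 of the heat shock genes, and 24.4% of all genes. With GSK690*, 1 of these 12 was higher in Kasumi-1 at 24 h (median −0.0778), against 10 in Kasumi-1 and 11 in SKNO-1 at 72 h (medians 0.0521 and 0.0427). Of the hypoxia and glycolysis genes 10 of 11 were higher in Kasumi-1 at 72 h (median 0.0811) and 3 in SKNO-1 at 72 h (median −0.0442). The sign of some of these medians depends on the scaling: quantile normalization gave −0.0237 for the heat shock genes, −0.000401 for the unfolded protein response and 0.00414 for the immediate early genes, and median-of-ratios scaling gave 0.00141 for oxidative stress and 0.00146 for the immediate early genes. Among the p53 targets TNFRSF10B, the death receptor DR5, had the largest value, a log2 difference of 0.40 (95% interval 0.09 to 0.71). It was at 3.28 to 7.05 FPKM with GSK690* and 2.01 to 5.65 FPKM with DMSO, and GSK690 raised it by 1.81. TNFRSF10D, a decoy receptor for the same ligand, differed by 0.30 (0.17 to 0.43), with adjusted p = 0.204, and both were named after their values were seen.

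**Figure D5:**
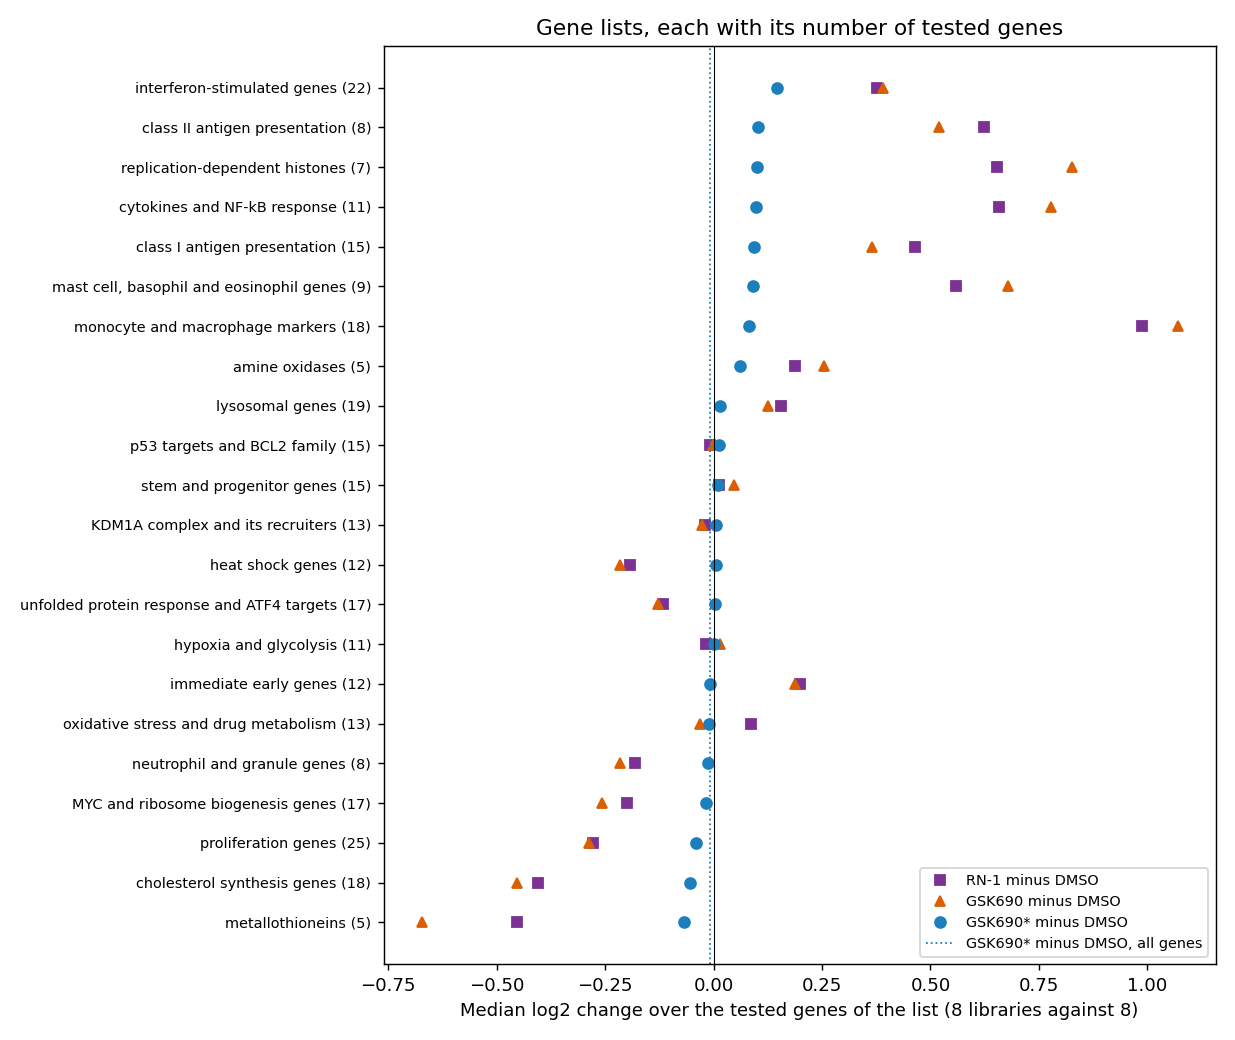
Median log2 change of each gene list with 5 or more tested genes (number in brackets) for RN-1, GSK690 and GSK690* minus DMSO, 8 libraries against 8, with the median of all genes for GSK690* as a dotted line. The GSK690* medians run from −0.068 for metallothioneins to 0.147 for interferon-stimulated genes, and those of GSK690 from −0.673 to 1.07.

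Sums of markers of other cell types were taken over both lines and both times together. Overlap of such ranges cannot show whether the agents differ within a set, and the part of these markers in the results was not tested. The summed FPKM of 11 T and NK cell markers was 1.05 to 3.08 with GSK690* and 0.476 to 2.38 with DMSO, with KLRD1 at 0 in all 16 libraries. That of 9 B cell markers was 8.33 to 64.0 with GSK690* and 7.52 to 58.1 with DMSO, with MS4A1 and VPREB1 at 0. The sum of 17 erythroid and megakaryocyte genes was 4.72 to 51.2 with GSK690* and 6.18 to 51.4 with DMSO, with HBB, HBG1 and PF4 at 0. The sum of 10 adherent and stromal markers was 0.831 to 83.7 with GSK690* and 1.07 to 76.2 with DMSO, with COL1A2, DCN and PECAM1 at 0. That of 27 monocyte and macrophage markers, which include LYZ and CTSS, was 108 to 168 with GSK690* and 90.2 to 147 with DMSO.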

How the data were processed

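Gene expression was measured by RNA sequencing, and the values are the FPKM per gene that the authors deposited for 32 libraries. TopHat 1.4.1, Cufflinks and the hg19 build are named per the submitters' processing notes, and the annotation release and library kit are not given in the sources used here. FPKM scaling ties each gene to the total of its library, so a change in a few abundant genes can shift the rest, and the depth behind each value is unknown. Columns were matched to samples by source name and groups were taken from the titles.

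Of 23073 genes in the table, 5077 were 0 in every library, and 102 missing values in 30 genes were left missing in the fits. The 11890 genes that reached 1 FPKM in 2 or more of the 32 libraries were tested. Values were taken as log2(FPKM + 1), which understates changes of low genes, and each gene was modelled with limma 3.58.1 (R 4.3.3) by its two-sided moderated test with a mean-variance trend, Benjamini-Hochberg adjustment over all tested genes and a threshold of 0.05. The unpaired fit used the 16 libraries of 2 agents with 4 sets (cell line by time) as blocks and 11 residual degrees of freedom. The paired fit used the replicate number within each set as the block. The deviations of same-numbered GSK690* and DMSO libraries from their group means correlated at 0.214 (Kasumi-1, 24 h), 0.481 (Kasumi-1, 72 h), 0.368 (SKNO-1, 24 h) and 0.144 (SKNO-1, 72 h), so the numbers were taken to pair the samples. The pairing comes from these data and the numbers in the titles, and no label names a shared culture day. The labels call the replicates biological without naming separate cultures, so p-values measure the spread between these samples.

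Single sets and interactions were fitted with 8 group means over the 16 libraries. The script was tested on simulated data. The genes named were the 6 of smallest p, since none passed, those that passed in a set, a list followed whatever their values, and the 6 highest and 3 lowest of each crossed list. Genes outside this rule were chosen after their values were seen, namely EVI2B, LPAR6, P2RX7, PIK3IP1, PITPNC1, PIK3R2, RGS5, TNFRSF10B, TNFRSF10D and the members named from gene lists. The members and lists were chosen with earlier results of these data known. Alternatives were another pseudocount, no filter, 2 scalings, other blocks, all 32 libraries, and leaving out libraries or sets. Leaving out each pair from the paired fit was chosen after seeing the data. Promoter letters were searched with Python 3.11.15.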

Additional observations from a re-analysis of the deposited data

How the results depend on the processing

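The count of genes past the threshold between GSK690* and DMSO sat at its limit. Higher with GSK690* were 6 genes after quantile normalization, 4 after median-of-ratios scaling, 3 with cell line and time as additive terms, 7 with all 32 libraries, and 1 each without the set SKNO-1 24 h (GLIPR1) and without the set SKNO-1 72 h (CTSS). None was lower under these settings, and the counts stayed at 0 in both directions with a pseudocount of 0.1 and without a filter. With the replicate block 7 were higher and 1 lower. That block left the counts of the other comparisons within 1.5 times, and beside these 8 genes it changed the call of 1 named gene, MT1G with RN-1, which passed only with the block. With single libraries left out the unpaired count of higher genes was 0 to 3. With single pairs left out the paired count was 1 to 22 for higher and 0 to 4 for lower genes.

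In single sets, 1 gene was higher in Kasumi-1 at 72 h with the 4 libraries alone, and 0 in SKNO-1 at 24 h with those alone or after quantile normalization. With libraries left out, 0 were higher in SKNO-1 at 24 h, 0 to 3 were higher and 0 to 1 lower in SKNO-1 at 72 h, and 0 to 1 were lower in Kasumi-1 at 72 h. Both interactions gave 0 to 1, with 1 gene for the lines without the second GSK690* replicate of SKNO-1 at 24 or 72 h, and 1 for the times without the first DMSO or second GSK690* replicate of SKNO-1 at 72 h. The 8 crossed medians kept their direction. Lowered lists moved to −0.119 (read in Kasumi-1) and −0.229 (read at 24 h) at a 2-fold limit, and to −0.0402 (read at 72 h) with median-of-ratios scaling. As libraries were left out they ran from −0.168 to −0.0616 read at 72 h and from −0.0958 to −0.0524 read in Kasumi-1. The cause was not tested.

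Genes near 0 changed sign. For GSK690* minus DMSO, RCOR1 was 0.0144 after quantile normalization, 0.00914 after median-of-ratios scaling and 0.0666 without SKNO-1 72 h. Without Kasumi-1 24 h, SPI1 was 0.00161, PI16 −0.00663, CLEC4A −0.0198 and MT1G 0.114, and MT1G was 0.0401 without Kasumi-1 72 h. Without SKNO-1 24 h, NEDD8-MDP1 was −0.14, CEBPA 0.128, FCGR2B −0.00284 and CLEC4A −0.0161. For GSK690 minus DMSO, NEDD8-MDP1 was −0.214 with a pseudocount of 0.1 and −0.032 after quantile normalization, where RCOR1 was 0.00074 and SPI1 0.0137. For GSK690 minus GSK690*, SPI1 was 0.00013 with a pseudocount of 0.1, 0.0585 after quantile normalization and 0.0241 after median-of-ratios scaling. With libraries left out, GSK690* minus DMSO ran from −0.0852 to 0.0796 for CEBPA, −0.024 to 0.0421 for CLEC4A, −0.18 to 0.105 for MT1G and −0.0212 to 0.0343 for RCOR1. NEDD8-MDP1 ran from −0.115 to 0.0947 for GSK690 minus DMSO, SPI1 from −0.0513 to 0.055 for GSK690 minus GSK690* and from −0.0257 to 0.0616 for RN-1 minus DMSO, and RGS5 from −0.138 to 0.0358 for RN-1 minus DMSO. Without counts, the precision of low genes cannot be set from the depth.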
